A study of Homo sapiens with 8 samples.

Results

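The genes described here encode intermediate filament proteins, namely the simple epithelial keratins KRT7, KRT8, KRT18 and KRT19, vimentin (VIM), nestin (NES) and the nuclear lamins LMNA, LMNB1 and LMNB2. They were taken by symbol, 9 of the 20344 genes that the deposited RNA-seq tables hold, and all 9 were in both tables and passed the filter on low counts. The RNA came from H9 cells, an established human embryonic stem cell (hESC) line, grown on Matrigel in defined stem cell medium. In the crowding experiment, 2 libraries of low-density cells were compared with 2 libraries of high-density cells, in which attachment had been limited to small Matrigel-coated islands. In the knockdown (KD) experiment, 2 libraries of cells carrying a control short hairpin RNA (shControl) were compared with 2 libraries of cells carrying a hairpin against ETV4 (shETV4), an ETS-family transcription factor of the PEA3 group. All 4 groups were H9 cells with no other allele or agent named in the labels, and which ETV4 hairpin was sequenced is not given in the sources used here. The labels do not say whether replicates were separate cultures, so the p-values measure the spread between these libraries, which may be technical.

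Intermediate filaments are rope-like polymers that carry mechanical load through the cell. Keratins form obligate pairs of a type I and a type II protein anchored at desmosomes, vimentin and nestin belong to the network of motile and progenitor cells, and lamins line the inner face of the nuclear envelope. B-type lamins are made in nearly all cells, whereas the A-type lamins, lamin A and lamin C, are made by alternative splicing of LMNA and are known to be scarce in pluripotent cells and more abundant in stiff tissues. The comparisons address how the transcriptome of hESCs responds to the loss of cell area and to the loss of ETV4.

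After crowding, RNA of part of the cytoplasmic filament network and of the A-type lamin was lower. VIM, LMNA, KRT18 and NES fell, and none of the 9 genes rose. After ETV4 KD LMNA, KRT19 and VIM rose and none of the 9 fell. LMNA and VIM passed the test in both experiments, in opposite directions. The B-type lamins, KRT7 and KRT8 passed the test in neither experiment. A gene passed the test where its adjusted p in edgeR's quasi-likelihood test was below 0.05 and its log2 fold change was beyond 0.5 in either direction, the thresholds of the study.

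The 250 bases before the annotated start of VIM, one of the genes that rose after ETV4 KD, are shown because ETV4 belongs to the ETS family, whose members bind sequences with a GGAA core. The sequence is from GRCh37, 5′ to 3′ on the gene's strand, with each GGAAG or its reverse complement CTTCC in capitals. The window is chr10:17269990-17270239 (plus strand).
VIM: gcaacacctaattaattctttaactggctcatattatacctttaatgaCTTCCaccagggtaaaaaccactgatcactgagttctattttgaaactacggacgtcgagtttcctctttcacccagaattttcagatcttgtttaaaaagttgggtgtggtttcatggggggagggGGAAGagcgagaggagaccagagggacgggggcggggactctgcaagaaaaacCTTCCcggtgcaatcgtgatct
The VIM window held 3 matches. This 5-letter core is common. The background was the same windows of the 18005 genes in either table that have an annotated canonical transcript. Searched on both strands, the core was in 66.7% of them and in 8 of the 9 filament genes, with no match in LMNB1. Each window ends at the start of the canonical transcript, and in some genes it reaches into exons of other transcripts. The bases before any such exon were 0 of 250 in LMNB1, 3 in KRT18, 48 in KRT7, 209 in LMNA and 247 in KRT8. In VIM they were all 250. GC boxes (GGGCGG) were in 63.3% of all windows and in 8 of the 9, with none in KRT8. A TATA box (TATAAA) was in 7.30% of all windows and, among the 9 genes, only in KRT8. The AP-1 site TGANTCA (3.84% of windows) and the CArG box of serum response factor (1.09%) were in none of the 9. The VIM window was the poorest in G and C of the 9, at 46.0% against a median of 64.4% over all genes.

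In the levels of RNA per transcript length (FPKM, fragments scaled to transcript length and to the mapped reads of the library), the KRT18 and KRT8 pair was the most abundant in all 4 groups. KRT18 averaged 282 ± 6.69 FPKM (SD, n = 2) at low density, 157th among the 19472 genes of that table, and KRT8 188 ± 0.206. VIM, LMNB1, LMNB2 and NES followed between 77.4 and 85.9 FPKM, with the libraries of VIM and LMNB1 overlapping, then KRT19 at 48.9 and LMNA at 21.6. KRT7 was last at 2.24 FPKM. At high density VIM had moved from position 3 of the 9 to position 7, level with KRT19, whose libraries it overlapped, and its place among all genes had gone from 661 to 1353. In the knockdown table VIM was at position 5 with shControl and at position 4 with shETV4, where it overlapped LMNB1. The experiments share no library, so levels are not compared between them.

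**Figure D1:**
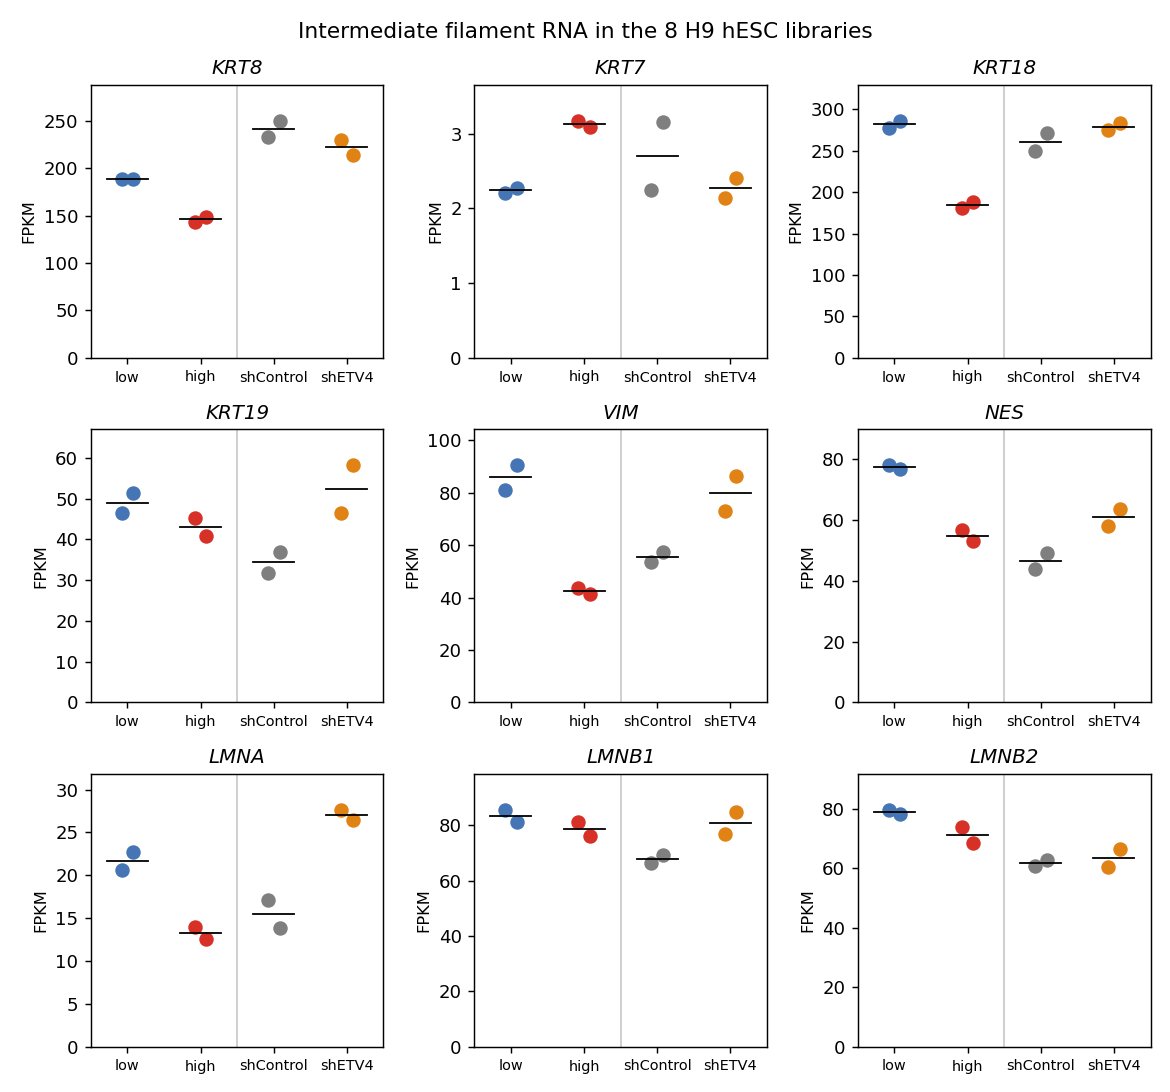
FPKM (y axis, linear from 0, separate scale per gene) of the 9 genes in each library; points are libraries, horizontal bars are means of 2, and the vertical line divides the crowding table from the knockdown table. The high-density points of VIM (43.5 and 41.4) lie far below the low-density points (81.2 and 90.6), whereas the shETV4 points of LMNA (27.7 and 26.4) lie above those of shControl (17.1 and 13.9).

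The type III filament protein vimentin gave the widest change of the 9 genes after crowding. VIM (GRCh37 chr10:17270240-17279592, plus strand) stood at 81.2 and 90.6 FPKM in the low-density libraries and at 43.5 and 41.4 in the high-density libraries. Both high-density libraries lay below both low-density ones, and the gap between the groups was wider than the spread within either. The log2 fold change was -1.07 (SE 0.06, adjusted p = 5.31e-11, edgeR). NES (chr1:156638555-156647199, minus strand), a long filament protein that polymerises together with vimentin and marks neural progenitors, was at 78.1 and 76.7 FPKM at low density and at 56.7 and 53.0 at high density. The groups did not overlap, and NES fell by 0.55 on the log2 scale (SE 0.05, adjusted p = 8.08e-08). This call lay close to the fold threshold: without the second high-density library the change was -0.50 and did not pass, although its adjusted p was 8.44e-20. In FPKM fitted with limma it was -0.49 or -0.50.

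Among the keratins, the type I member of the main pair changed more than its type II partner. KRT18 (chr12:53342655-53346690, plus strand) was at 277 and 286 FPKM at low density and at 181 and 188 at high density (log2 fold change -0.67, SE 0.05, adjusted p = 3.76e-09). Its groups were well apart. KRT8 (chr12:53290971-53343738, minus strand), its partner in simple epithelia, was at 189 and 188 FPKM and then at 144 and 149. They were also well apart, yet the log2 fold change of -0.41 (SE 0.05, adjusted p = 2.49e-06) was inside the fold threshold. KRT19 (chr17:39679869-39684560, minus strand), a short type I keratin without the usual tail domain, was at 46.5 and 51.3 FPKM and then at 45.1 and 40.7, with a log2 fold change of -0.25 (SE 0.07, adjusted p = 0.00552). The lowest KRT19 library at low density was only just above the highest at high density. KRT7 (chr12:52626304-52645970, plus strand), a type II keratin of simple and glandular epithelia, was the only one of the 9 with a higher level at high density, 3.17 and 3.08 FPKM against 2.21 and 2.28. Its log2 fold change was 0.42 (SE 0.16, adjusted p = 0.0386), which did not pass the fold threshold. KRT7 is the scarcest of the set, with 207 to 359 reads per library here, against 5881 or more for VIM.

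The nuclear lamins split by type. LMNA (chr1:156052364-156109872, plus strand) was at 20.6 and 22.7 FPKM at low density and at 13.9 and 12.6 at high density. Neither high-density library came near the low-density range, and LMNA fell by 0.79 on the log2 scale (SE 0.06, adjusted p = 6.27e-09). The values are per gene and do not separate lamin A from lamin C. LMNB1 (chr5:126112315-126172712, plus strand) was at 85.7 and 81.0 FPKM and then at 81.2 and 76.0, overlapping between groups (log2 fold change -0.16, SE 0.06, adjusted p = 0.0276). LMNB2 (chr19:2427636-2456957, minus strand) was at 79.8 and 78.4 FPKM and then at 73.9 and 68.7 (log2 fold change -0.21, SE 0.05, adjusted p = 0.00435). Neither B-type lamin passed the fold threshold.

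Read against all genes, 4 of the 9 passed the test downward, where 5.47% of the 17672 genes tested did, and 0 of the 9 passed it upward, where 10.7% did. By edgeR all 9 had an adjusted p below 0.05, as did 39.7% of all genes. The median log2 fold change of the 9 was -0.41, against 0.00 over all genes. On the FPKM scale, by limma on log2(FPKM + 0.5), the median of all genes was 0.03, and KRT8 and LMNB1 were at -0.36 and -0.08, the latter with an adjusted p of 0.263. KRT19 and LMNB2 also had an adjusted p above 0.05 in that limma fit (0.0765 and 0.0607), as KRT7 had by DESeq2 (0.0717). Of the 9, 7 were lower with no overlap between the groups and 1 was higher, where 29.0% and 41.2% of all genes were.

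In the knockdown experiment the targeted gene was lower in both shETV4 libraries: ETV4 was at 90.8 and 95.1 FPKM with shControl and at 45.6 and 40.9 with shETV4 (log2 fold change -1.15, SE 0.07, adjusted p = 1.60e-04). In the crowding experiment ETV4 was at 73.2 and 72.6 FPKM at low density and at 54.2 and 53.9 at high density. That log2 fold change of -0.49 (SE 0.06, adjusted p = 9.42e-07) was inside the fold threshold.

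LMNA gave the clearest change after ETV4 KD. Its levels were 17.1 and 13.9 FPKM with shControl and 27.7 and 26.4 with shETV4, far apart, and it rose by 0.79 on the log2 scale (SE 0.11, adjusted p = 0.00333). LMNA passed the test in every one of the alternative settings, with log2 fold changes of 0.62 to 0.94 as single libraries were left out. LMNB1 was at 66.3 and 69.2 FPKM with shControl and at 76.7 and 84.6 with shETV4. Its groups did not overlap, but its log2 fold change of 0.21 (SE 0.07, adjusted p = 0.0692) passed neither threshold. LMNB2 overlapped between the groups, at 61.0 and 62.7 against 60.5 and 66.5 FPKM (log2 fold change 0.04, SE 0.08, adjusted p = 0.740).

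KRT19 and VIM rose as well, and in FPKM their shETV4 libraries lay further apart than those of LMNA. The test used counts, and in reads scaled to library size the shETV4 libraries of LMNA were apart as well. In that unit they were at 71.2 and 87.6 for LMNA, 70.1 and 90.1 for KRT19, and 171 and 207 for VIM. The second shETV4 library of LMNA was thus the lower in FPKM and the higher in scaled reads. KRT19 went from 31.8 and 36.8 FPKM to 46.6 and 58.2, a log2 fold change of 0.62 (SE 0.13, adjusted p = 0.0143). VIM went from 53.6 and 57.5 FPKM to 73.1 and 86.3, a log2 fold change of 0.53 (SE 0.10, adjusted p = 0.0108). In both genes the second shETV4 library was the higher, and without it neither passed the fold threshold, with 0.42 for KRT19 and 0.37 for VIM. Without the first shControl library VIM was at 0.49 and did not pass either. NES was at 43.9 and 49.3 FPKM with shControl and at 58.2 and 63.6 with shETV4. Its log2 fold change of 0.39 (SE 0.09, adjusted p = 0.0185) was inside the fold threshold, though the groups did not overlap.

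The main keratin pair moved little after ETV4 KD. KRT18 was at 249.8 and 272 FPKM with shControl and at 275 and 284 with shETV4 (log2 fold change 0.10, SE 0.08, adjusted p = 0.357). KRT8 was at 233 and 250.4 FPKM and then at 230.0 and 214 (log2 fold change -0.12, SE 0.07, adjusted p = 0.269). Neither passed the test, although the libraries of the groups did not overlap in either gene. KRT7 was at 2.25 and 3.16 FPKM with shControl and at 2.13 and 2.40 with shETV4, overlapping (log2 fold change -0.24, SE 0.21, adjusted p = 0.441).

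Of the 9 genes, 3 passed the test upward, where 5.88% of the 17879 genes tested did, and 0 passed it downward, where 7.1% did. An adjusted p below 0.05 was found in 4 of the 9 and in 21.5% of all genes. The median log2 fold change of the 9 was 0.21, against -0.00 over all genes. Without overlap, 6 were higher and 1 was lower, where 31.8% and 31.5% of all genes were.

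**Figure D2:**
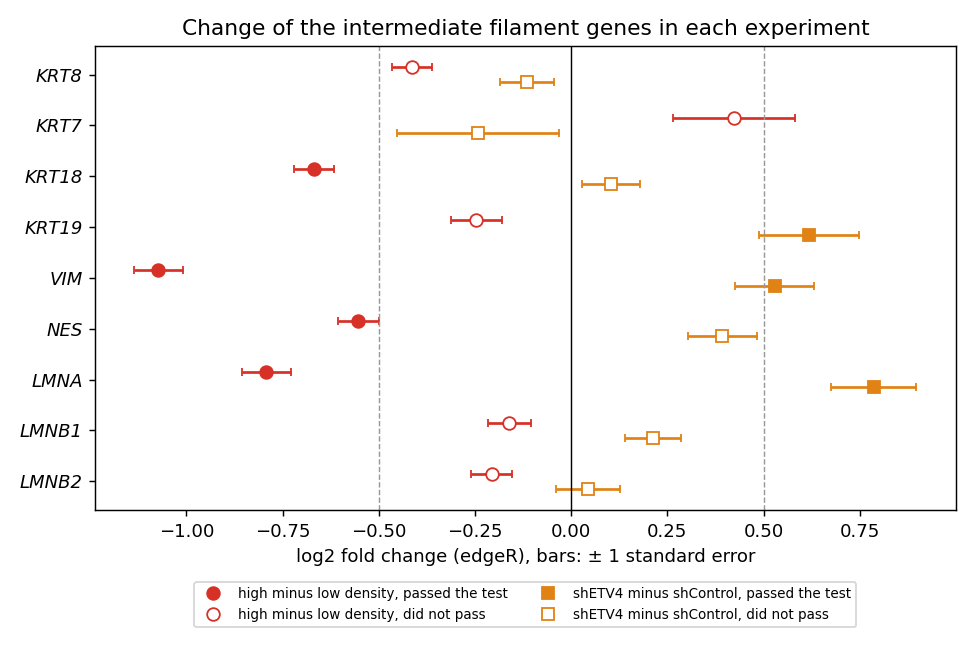
Log2 fold change (x axis) of the 9 genes (y axis) by edgeR for high minus low density (circles) and shETV4 minus shControl (squares); bars are 1 standard error, filled symbols passed the test and dashed lines mark the fold threshold of 0.5. VIM and LMNA lie beyond the threshold on the left after crowding (-1.07 and -0.79) and on the right after ETV4 KD (0.53 and 0.79).

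The changes were then compared between experiments, since an effect past the threshold in one experiment only does not show a difference. The experiments share no library, and the test was of the change after crowding minus the change after ETV4 KD, in one edgeR fit of the 8 libraries. By this test 5 of the 9 genes differed downward, where 12.5% of the 17790 genes tested did. VIM differed by -1.61 on the log2 scale (SE 0.13, adjusted p = 4.98e-06) and LMNA by -1.58 (SE 0.13, adjusted p = 6.64e-06). NES differed by -0.95 (adjusted p = 5.82e-05), KRT19 by -0.87 (adjusted p = 0.00132) and KRT18 by -0.78 (adjusted p = 6.25e-05). In all 5 genes the changes had opposite signs. VIM and LMNA passed the test in both experiments, KRT18 and NES after crowding and KRT19 after ETV4 KD. KRT8 (-0.31, adjusted p = 0.0105) and LMNB1 (-0.38, adjusted p = 0.00591) differed by less than the fold threshold. LMNB2 (-0.26, adjusted p = 0.0625) and KRT7 (0.66, adjusted p = 0.0596) did not pass the adjusted p, and KRT7 passed in 4 of 13 alternative settings.

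Ratios within a library do not depend on its depth and show how the composition of each filament system differed between groups. Lamin A/C made up 11.1% and 12.5% of the summed lamin FPKM at low density and 8.23% and 7.99% at high density. With shControl it made up 11.9% and 9.51%, and with shETV4 16.8% and 14.9%. The difference was -3.65 percentage points after crowding and 5.15 after ETV4 KD, without overlap in either.

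Vimentin RNA made up 14.8% and 16.0% of the FPKM of VIM, KRT8 and KRT18 at low density and 11.8% and 10.9% at high density. The knockdown libraries went the other way, from 9.99% and 9.91% with shControl to 12.7% and 14.8% with shETV4. The type II share of the 4 keratins, KRT7 and KRT8 over all 4, was 37.1% and 36.1% at low density and 39.4% and 40.0% at high density. It was 45.5% and 45.1% with shControl and 42.0% and 38.8% with shETV4. The ratio of KRT8 to KRT18 FPKM was accordingly 0.680 and 0.657, then 0.794 and 0.793 in the crowding libraries, and 0.932 and 0.921, then 0.838 and 0.754 in the knockdown libraries. The groups were separate for all 3 shares in both experiments. With 2 libraries against 2, each exact two-sided permutation test gave p = 0.333, the smallest this design allows.

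**Figure D3:**
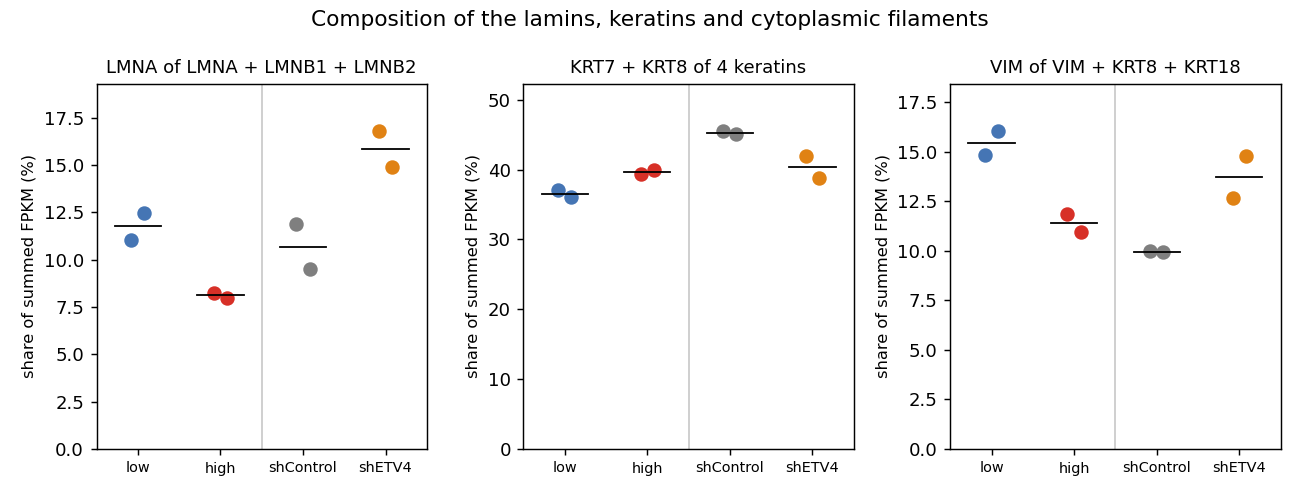
Share of summed FPKM (y axis, percent, from 0) in each library for lamin A/C among the lamins (left), type II among the 4 keratins (middle) and vimentin among VIM, KRT8 and KRT18 (right); points are libraries and horizontal bars are means of 2. The lamin A/C share is lower at high density (8.23% and 7.99%) than at low density (11.1% and 12.5%) and higher with shETV4 (16.8% and 14.9%) than with shControl (11.9% and 9.51%).

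Some reads of these genes are uncertain. KRT8 and KRT18 lie side by side on opposite strands and their annotated spans overlap by 1084 bases, and VIM overlaps its antisense RNA VIM-AS1, which had 34 to 80 reads per library. Whether the counting used strand is not given in the sources used here. Processed KRT8 pseudogenes, 11 in each table, held reads equal to 1.94% to 3.17% of the KRT8 count, and KRT18 pseudogenes 0.169% to 0.384% of the KRT18 count. KRT7 shares part of its span with KRT86, which had 2 to 10 reads in the crowding table.

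The rest of the intermediate filament family was sparse. Of 51 other keratin genes, 4 were in the crowding table and 5 in the knockdown table. Among the 3 tested after crowding, KRT10, a type I keratin of differentiating epidermis, fell from 4.48 and 4.80 FPKM to 3.06 and 2.96 (log2 fold change -0.68, adjusted p = 1.01e-04). KRT17, which is under 1 FPKM, fell as well, and no other keratin of the 5 tested after ETV4 KD passed the test. The 9 other cytoplasmic filament genes tested were scarce as well, with INA the most abundant at a mean of 10.9 FPKM at low density. Of these SYNM (synemin), a partner of vimentin and desmin in mixed filaments, fell from 1.73 and 1.78 FPKM to 0.782 and 0.787 after crowding (log2 fold change -1.23, adjusted p = 3.17e-08). The neurofilament genes NEFH and NEFL rose (0.62 and 0.51, adjusted p = 4.02e-04 and 1.80e-04), while INA, another neuronal filament gene, was at -0.40. After ETV4 KD, 1 of the 9 rose, NEFH (0.54, adjusted p = 0.0328), where 5.88% of all genes did, and none fell.

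Of 20 tested genes whose products bind, process or anchor the lamina, 3 rose after ETV4 KD, where 5.88% of all genes did, and none fell: LEMD2 went from 13.3 and 15.4 FPKM to 22.3 and 22.6 (log2 fold change 0.66, adjusted p = 0.00357), EMD from 44.8 and 47.1 to 65.4 and 71.8 (0.58, adjusted p = 0.00454) and ZMPSTE24 from 16.8 and 18.3 to 24.3 and 27.5 (0.57, adjusted p = 0.00745). LEMD2 and emerin (EMD) are inner nuclear membrane proteins of the LEM family, and ZMPSTE24 is the protease that matures prelamin A. After crowding 1 of the 20 rose, SYNE1, which is under 1 FPKM, where 10.7% of all genes did, and none fell. Its log2 fold change on counts was 0.55. In FPKM its libraries overlapped, at 0.133 and 0.0880 at low density and 0.130 and 0.120 at high density. ZMPSTE24 was at -0.46 and EMD at 0.17 after crowding, inside the fold threshold. The median over the 20 genes was -0.09 after crowding and 0.06 after ETV4 KD, near the 0.00 and -0.00 of all genes.

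Linkers and desmosome genes tie filaments to junctions and to other filaments. Of 15 tested after crowding 3 fell, where 5.47% of all genes did. The plaque proteins PKP2 (plakophilin) and JUP (plakoglobin) had log2 fold changes of -0.63 (adjusted p = 3.51e-07) and -0.56 (adjusted p = 3.75e-04), and MACF1, a giant linker of actin and microtubules, was at the threshold with -0.50 (adjusted p = 3.35e-07). None rose, and the desmosomal linker DSP, which connects keratins to the plaque, was at 0.34. After ETV4 KD 2 of 16 tested fell, where 7.1% of all genes did, and none rose. They were PKP4 (-0.64, adjusted p = 0.00187) and PKP1, which is under 1 FPKM. The median of the list was -0.23 and -0.01. KRT17, SYNE1 and PKP1 were named after their values were seen, to complete these counts.

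**Figure D4:**
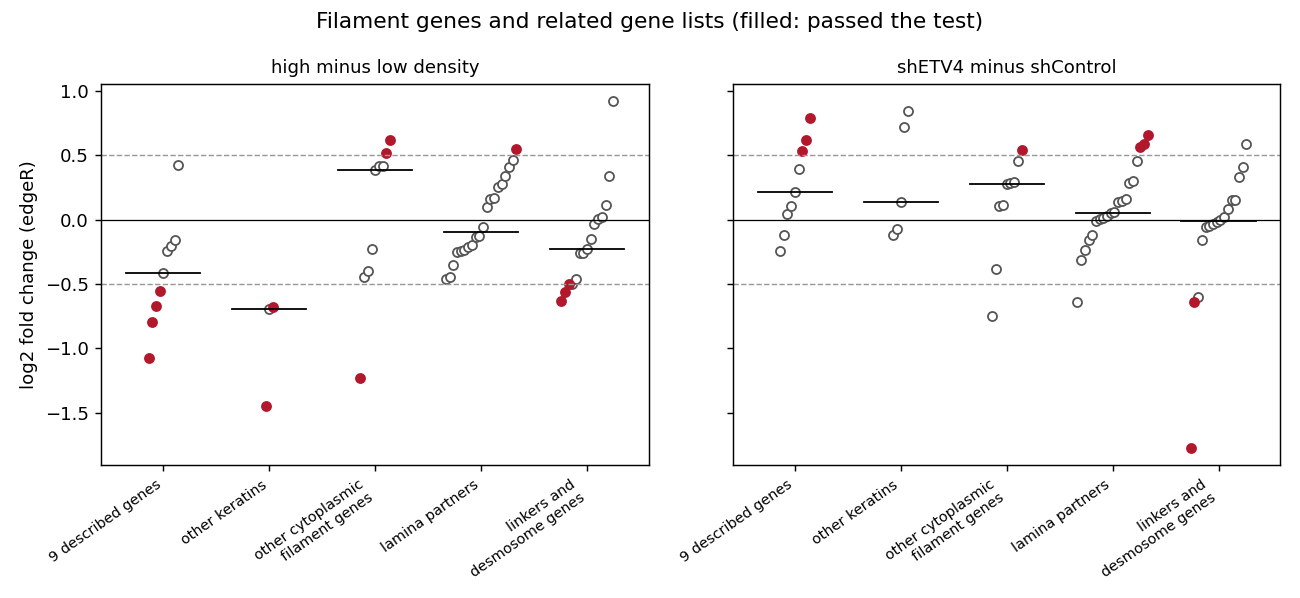
Log2 fold change by edgeR (y axis) of the tested genes in each list (x axis) after crowding (left) and after ETV4 KD (right); each point is a gene, filled points passed the test, horizontal bars are list medians and dashed lines mark the fold threshold. The 9 described genes have a median of -0.41 after crowding and 0.21 after ETV4 KD, whereas the lamina partners have -0.09 and 0.06.

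To see which genes followed the same course, log2 counts scaled to library size were centred within each experiment and compared over the 8 libraries by root mean square difference among 5222 genes with at least 10 FPKM. Nearest to KRT18 were SPATS2L (0.03), MARVELD1 (0.04) and the protease inhibitor gene SERPINE2 (0.04), against a median of 0.23 over all genes. Nearest to VIM were PEA15 (0.07), S100A10 (0.08), which encodes the partner of annexin A2, and HRAS (0.09), against a median of 0.41. Nearest to LMNA were SLC3A2 (0.06), GDAP1 (0.06) and PDLIM7 (0.10), against a median of 0.38. Within the family, LMNA was the 13th nearest gene to VIM (0.14), and VIM the 23rd nearest to LMNA. For KRT18 the nearest of the family was NES at 210th, and KRT8 was 255th, though both at a smaller distance (0.12 each). The medians over all genes differ, so such places are not compared between KRT18, VIM and LMNA. These distances are a description over libraries that share their preparation.

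Markers of the cell types that hESC cultures can hold were read beside these results. All 10 hESC markers were in both tables, with POU5F1 at a mean of 1135 FPKM at low density. None of the 10 passed the test after crowding, where 10.7% of all genes rose and 5.47% fell. After ETV4 KD LIN28A rose (0.51) and DNMT3B and TDGF1 fell (-0.82 each), where 5.88% of all genes rose and 7.1% fell. Some moved inside the fold threshold. After crowding NANOG was at -0.46 and SOX2 at 0.41 (adjusted p = 3.36e-06 and 6.71e-06, edgeR). NANOG was also at -0.44 after ETV4 KD (adjusted p = 0.0165, edgeR). The summed level of mesenchymal markers was 22.8 FPKM in both low-density libraries and 10.5 to 11.8 at high density, and 23.8 to 24.2 with shControl and 27.8 to 28.2 with shETV4. Most of that sum was CDH2 (N-cadherin), which fell by 1.53 on the log2 scale after crowding and was at 0.27 after ETV4 KD. ZEB1, ZEB2 and SNAI2 were under 0.5 FPKM in every group mean. SNAI1 had signs opposite to those of CDH2 and passed the test in neither experiment. Its means were 3.61 FPKM at low and 4.00 at high density (log2 fold change 0.09). They were 4.61 with shControl and 3.72 with shETV4 (-0.31). Of the 6 tested after crowding 3 fell (CDH2, SNAI2, ZEB1), where 5.47% of all genes did. Of the 7 tested after ETV4 KD 1 rose (ACTA2), where 5.88% of all genes did. None of the 7 epithelial markers passed the test in either experiment, against the shares of all genes given above. Their summed levels were 572 to 589 and then 528 to 569 FPKM after crowding, and 434 to 469 and then 481 to 517 after ETV4 KD. Inside the fold threshold they moved both ways. After crowding CDH1 was at 0.32 (adjusted p = 3.67e-04, edgeR), ESRP2 at -0.30 and CLDN6 at -0.27. After ETV4 KD CDH1 was at -0.32 (adjusted p = 0.0259, edgeR) and CLDN7 at 0.41.

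Mesendoderm markers summed to 4.46 to 4.78 FPKM at low density and to 0.969 to 1.20 at high density, with CER1 most of the sum at low density, and to 2.24 to 3.33 with shControl and 1.34 to 2.04 with shETV4. Of the entries tested 2 of 4 fell after crowding and 1 of 2 after ETV4 KD. Trophoblast and amnion markers, cell types that also make simple keratins, summed to at most 1.37 FPKM in the crowding libraries, and went from 3.89 to 4.66 with shControl to 1.35 to 2.18 with shETV4, almost all of it GABRP. The defining genes TFAP2A, TFAP2B and HAND1 were in neither table. Neuroectoderm markers summed to under 2.1 FPKM in every library, with 1 of 5 up and 2 down after crowding and 1 of 3 down after ETV4 KD. Of 17 proliferation genes 1 rose and 1 fell after crowding and 2 fell after ETV4 KD. Over all genes 10.7% rose and 5.47% fell after crowding, and 5.88% rose and 7.1% fell after ETV4 KD. Whether the shifts in marker genes had a part in the filament results was not tested, and in bulk RNA fewer cells of a type cannot be told apart from less RNA per cell.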

How the data were processed

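RNA of 8 H9 libraries was sequenced by the authors, who made poly-A libraries with a stranded kit. Per the labels, reads were handled with Trimmomatic, HISAT2 2.1.0 and StringTie 2.1.3b on GRCh37. The authors deposited 1 table per experiment with read counts per gene, not normalized, and FPKM values, normalized per library by transcript length and mapped reads. Each gene in a table has at least 1 read in each of its 4 libraries, so genes without reads in some library are not seen. The tables also hold the authors' fold changes and p-values, and 16 further columns of per-sample values; none of these was used.

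Library totals were 50359703 to 62410168 counts, and the 9 genes had from 207 reads (KRT7) to 29536 (NES) in a library. Counts were fitted per table with edgeR 4.0.16 in R 4.3.3 (filterByExpr, TMM, robust dispersions, quasi-likelihood test), and p-values were adjusted by Benjamini-Hochberg over 17672 genes for crowding and 17879 for ETV4 KD. The standard error is the absolute log2 fold change over the square root of F. The difference between experiments was fitted on all 8 libraries over 17790 genes. Alternatives were DESeq2 1.42.0 (the tool of the study), its size factors, other filters, a replicate block, limma 3.58.1 on log2(FPKM + 0.5) and other pseudocounts, and leaving out each library. The scripts were tested on simulated counts. Shares were tested by exact permutation.

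The 9 genes and the lists were chosen with earlier results of these data known. Named from the lists are up to 4 genes per list and experiment that passed the test, with a mean of at least 1 FPKM and the widest changes, and the 3 genes nearest to each of KRT18, VIM and LMNA. The mesendoderm list of 10 holds TBXT under both its symbols. Gene positions and starts are those of the GENCODE annotation on GRCh37. Some promoter sequences are not reported here.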

Additional observations from a re-analysis of the deposited data

How the results depend on the processing

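Most recomputed values, 425, kept their direction and their side of the threshold or, for counts of genes, stayed within 1.5 times the reported count. Shares had to shift by less than the SD within groups. Of the other values 14 were weaker, 4 were stronger, 2 changed sign and 1, a vimentin share, shifted by more than that SD. Over the alternatives 3 to 4 of the 9 genes passed after crowding, the lost one being NES, and VIM, LMNA and KRT18 passed in all 13. As single libraries were left out, 3 to 4 genes passed after crowding, 1 to 3 after ETV4 KD and 5 to 6 in the difference between experiments. After ETV4 KD LMNA alone passed without the second shETV4 library. Values that changed sign were of genes that had not passed: KRT7 after ETV4 KD was at 0.02 without the second shControl library (-0.46 to 0.02 as single libraries were left out), and LMNB2 at -0.06 without the second shETV4 library (-0.06 to 0.14). In reads scaled to library size in place of FPKM the vimentin share differed by -5.20 percentage points after crowding, against -4.05 in FPKM. That unit does not divide by gene length.

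Counts over all genes depended on the method more than those of the 9: 2851 genes passed after crowding by edgeR and 2364 by DESeq2. By limma 2081, 1717 and 1256 passed with pseudocounts of 0.1, 0.5 and 1, and 1839 without a filter. After ETV4 KD 2321 passed by edgeR and 2218 by DESeq2. By limma 1877, 1703 and 1325 passed with pseudocounts of 0.1, 0.5 and 1, and 1502 without a filter. The filtered limma fits tested fewer genes, 14364 after crowding and 14619 after ETV4 KD. The cause of these differences between methods was not tested. Replicate numbers are shared between groups, but deviations of same-numbered libraries had correlations near 0 (-0.04 after crowding, 0.09 after ETV4 KD), so they were not taken as pairs. A correlation over all genes cannot exclude a replicate effect in some of them. With the replicate block 4 of the 9 genes passed after crowding, 3 after ETV4 KD and 6 in the difference, where KRT7 was added at 0.65, and 2874 and 2901 of all genes passed. The block lowered adjusted p in edgeR after ETV4 KD, from 0.0143 to 7.17e-08 for KRT19 and from 0.0108 to 1.37e-07 for VIM. For LMNB1 it went from 0.0692 to 0.00167, with a log2 fold change of 0.21 that stayed inside the fold threshold.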
